A study of Mus musculus with 8 samples.

Results

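The step from LSK cells to GMP cells was followed in the heterozygous control of a Cbfb deletion study. LSK cells are the bone marrow fraction without lineage markers and with Sca-1 and Kit on the surface, which holds the blood stem cells and multipotent progenitors. GMP cells are the granulocyte and macrophage progenitors. The comparison used 4 of the 8 arrays of the series, 2 of Het LSK and 2 of Het GMP, and 21789 of the 35556 rows of the table, those to which the platform annotation gives exactly 1 gene symbol. These rows stand for 19938 genes. The Het mice carried Vav1-iCre x Cbfb(F/+), that is, a Cre recombinase driven by the Vav1 promoter, which is active in blood cells, with 1 floxed and 1 intact Cbfb allele. The knockout (KO) mice, used here only for a shared estimate of the spread and for the difference between genotypes, carried the same Cre with Cbfb(F/F). All mice were 7 weeks old and backcrossed to C57BL6, no wild type was measured, and so every control value comes from cells with Cre and a single intact Cbfb allele. About 200000 cells were sorted per sample at a purity above 98%. Cbfb itself, the partner subunit that stabilises Runx factors on DNA, read 7.56 and 7.55 in the Het LSK arrays and 7.53 and 7.65 in the Het GMP arrays, with no difference beyond the spread.

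Commitment to the granulocyte and macrophage lineages is the loss of other fates together with the gain of a secretory cell. Stem and multipotent cells transcribe low levels of lymphoid, megakaryocyte and erythroid genes, and the C/EBP factors and PU.1 (Spi1) switch on the myeloid genes. At the next stage promyelocytes fill their primary, or azurophil, granules with proteases and myeloperoxidase, which are made at the endoplasmic reticulum (ER), folded, glycosylated and sorted through the Golgi. Secondary granules, with lactoferrin and its companions, come later, at the myelocyte stage.

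The serine protease genes Elane, Prtn3 and Ctsg and the myeloperoxidase gene Mpo define this cell, and their promoters are shown because all these genes rose in the comparison. Each line gives the 250 bases before the annotated start, 5′ to 3′ on the gene's strand, from RefSeq on GRCm38.p6. Capitals mark GAGGAAG, a form of the site that PU.1 and other ETS factors bind, and, in Ctsg only, ACCACA, the reverse complement of the RUNX site TGTGGT.
Elane, chr10:79886062-79886311, plus strand: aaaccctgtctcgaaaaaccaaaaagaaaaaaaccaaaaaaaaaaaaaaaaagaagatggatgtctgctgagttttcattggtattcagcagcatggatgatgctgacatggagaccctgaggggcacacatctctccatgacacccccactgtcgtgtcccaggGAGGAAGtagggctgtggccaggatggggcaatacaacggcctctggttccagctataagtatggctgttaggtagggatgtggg
Prtn3, chr10:79879417-79879666, plus strand: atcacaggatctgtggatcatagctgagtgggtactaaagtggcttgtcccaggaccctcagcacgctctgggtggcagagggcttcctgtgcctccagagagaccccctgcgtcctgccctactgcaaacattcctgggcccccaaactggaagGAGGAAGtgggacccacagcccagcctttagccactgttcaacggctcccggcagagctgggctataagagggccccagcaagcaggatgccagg
Mpo, chr11:87793534-87793783, plus strand: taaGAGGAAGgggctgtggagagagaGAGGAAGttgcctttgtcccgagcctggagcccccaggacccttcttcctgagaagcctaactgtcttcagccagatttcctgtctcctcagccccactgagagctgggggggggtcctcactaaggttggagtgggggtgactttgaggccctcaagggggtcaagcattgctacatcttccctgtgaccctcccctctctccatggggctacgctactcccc
Ctsg, chr14:56102575-56102824, minus strand: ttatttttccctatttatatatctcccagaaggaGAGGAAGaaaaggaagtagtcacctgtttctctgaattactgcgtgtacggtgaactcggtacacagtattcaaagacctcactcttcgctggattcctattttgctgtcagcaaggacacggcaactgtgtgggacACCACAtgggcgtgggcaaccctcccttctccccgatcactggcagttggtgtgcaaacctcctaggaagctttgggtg

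Counted from the start, GAGGAAG began at -85 in Elane, at -95 in Prtn3, at -247 and -224 in Mpo and at -216 in Ctsg, and the RUNX letters at -79 in Ctsg. Each motif was searched on both strands, and the motifs did not overlap in these windows. In the whole primary granule list, 19 of 22 measured genes had a window, 21 windows in all. GAGGAAG stood in 28.6% of these windows and in 10.5% of the 19177 windows of all tested genes. The RUNX letters TGTGGT stood in 42.9% against 11.8%, and TTGCNNAA, a form of the C/EBP site, in 14.3% against 8.66%. Over the 1534 windows of all genes that were higher in Het GMP the 3 shares were 11.5%, 11.99% and 9.78%, and over the 2048 windows of all genes that were lower they were 12.4%, 11.2% and 7.03%. These are descriptions of letters in windows of 250 bases, not of binding.

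All values are log2 expression values, and differences are Het GMP minus Het LSK on that scale, so that 1 is a doubling. SE is limma's standard error, and a gene is said to rise or fall where limma's p, adjusted by Benjamini-Hochberg over all 21789 rows, was under 0.05. The labels name biological replicates without saying which mouse gave which array, and p-values rest on how far these arrays spread. With 2 arrays on each side an exact permutation test, two-sided, can reach no p below 0.333. In bulk RNA, fewer cells of a type and less RNA per cell cannot be told apart. Over the tested rows the Het LSK arrays correlated at 0.994, the Het GMP arrays at 0.995, and arrays of the 2 cell types at 0.965 to 0.970.

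In total 3813 rows were called, which is 17.5% of those tested: 1721 were higher in GMP (7.9%) and 2092 lower (9.6%). By gene, 3500 of 19938 were called (17.6%): 1559 rose (7.82%) and 1941 fell (9.74%). In 57.9% of rows the arrays of the 2 cell types did not overlap. A change of at least 2-fold was called in 509 rows upwards and 839 downwards. The split depended on the scaling. The array medians over these rows were 5.07 and 5.09 in Het LSK and 4.93 and 4.92 in Het GMP. With each array's median subtracted, the median difference moved by 0.16, 3203 rows were higher and 1569 lower, and the share of higher rows among those called went from 45.1% to 67.1%. Counts for gene lists below are for values as deposited, and each list's share stands beside 7.82% and 9.74% for all genes. Leaving out 1 Het array lowered the count of called rows to 2078 (without Het GMP replicate 1), 2367 (without Het GMP replicate 2), 2223 (without Het LSK replicate 2) or 2852 (without Het LSK replicate 1). Of the 1348 called rows with at least a 2-fold change, 1202 kept their call with each of the 8 arrays left out in turn.

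**Figure D1:**
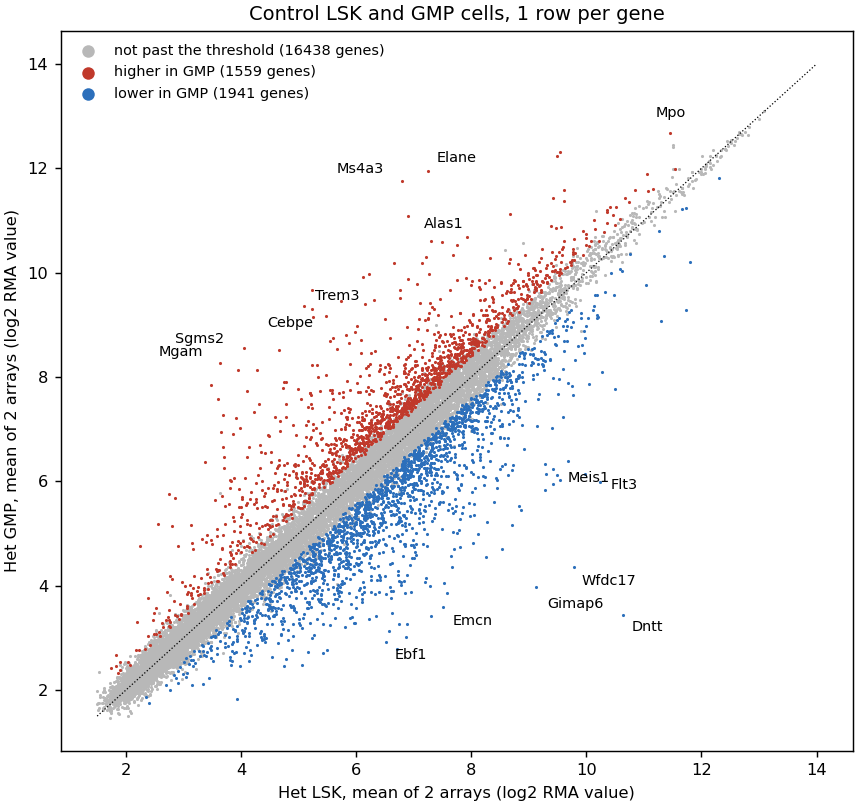
Mean log2 value of each of 19938 genes in the 2 Het LSK arrays (x axis) and in the 2 Het GMP arrays (y axis). Red points are the 1559 genes higher in GMP, blue points the 1941 lower, grey points the rest, and the dotted line marks equal values. Ms4a3 and Elane lie farthest above the line and Dntt farthest below it.

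The largest rise was that of Ms4a3, a membrane protein gene of granulocyte and monocyte progenitors. It read 6.54 and 7.05 in LSK and 11.79 and 11.73 in GMP, a difference of 4.97 (SE 0.16, limma adjusted p = 2.32e-06). The largest fall was that of Dntt, which encodes the terminal transferase of early lymphoid cells. Its arrays read 10.78 and 10.48 in LSK and 3.10 and 3.79 in GMP, and it fell by 7.19 (SE 0.49, adjusted p = 2.71e-05). For both genes the arrays of the 2 cell types lay much further apart than the 2 arrays of each type. A lack of overlap was a condition for choosing these and all other genes among the 15 largest rises and the 15 largest falls. For those genes it adds no support, also where it is mentioned below. The other genes among the 15 largest rises that belong to no list below, such as the maltase-glucoamylase gene Mgam, are described at the end.

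The genes behind the sort came next. Fcgr3, the Fc receptor III of the CD16/32 gate that defines GMP cells, read 4.79 and 5.66 in LSK and 9.58 and 9.74 in GMP and rose by 4.43 (adjusted p = 1.8e-05). Fcgr2b, the other receptor seen by that antibody, rose by 2.18 (adjusted p = 4.46e-05). Neither gene's groups overlapped. Kit and Cd34, present on both kinds of cell, fell: Kit from 10.08 and 10.30 to 9.14 and 9.26 (difference -0.99, adjusted p = 0.00187) and Cd34 from 11.05 and 11.04 to 9.63 and 9.89 (difference -1.28, adjusted p = 0.000499). Ly6a, the gene of Sca-1, was not analysed here. Of the 8 measured sort marker genes 2 rose (25%), namely Fcgr3 and Fcgr2b, which the gate itself selects, and 5 fell (62.5%). Most of the other marker genes named in this paragraph went with the labels. Mpo read 12.65 and 12.70 in GMP, and its rise from LSK, given below, was among the smaller ones of its list. The stem cell factor gene Mecom read 6.54 and 6.96 in LSK and 3.27 and 3.25 in GMP. Of the other genes chosen to mark GMP cells, Cebpa, Elane, Prtn3, Ctsg and Csf1r rose, and Csf3r did not pass.

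**Figure D2:**
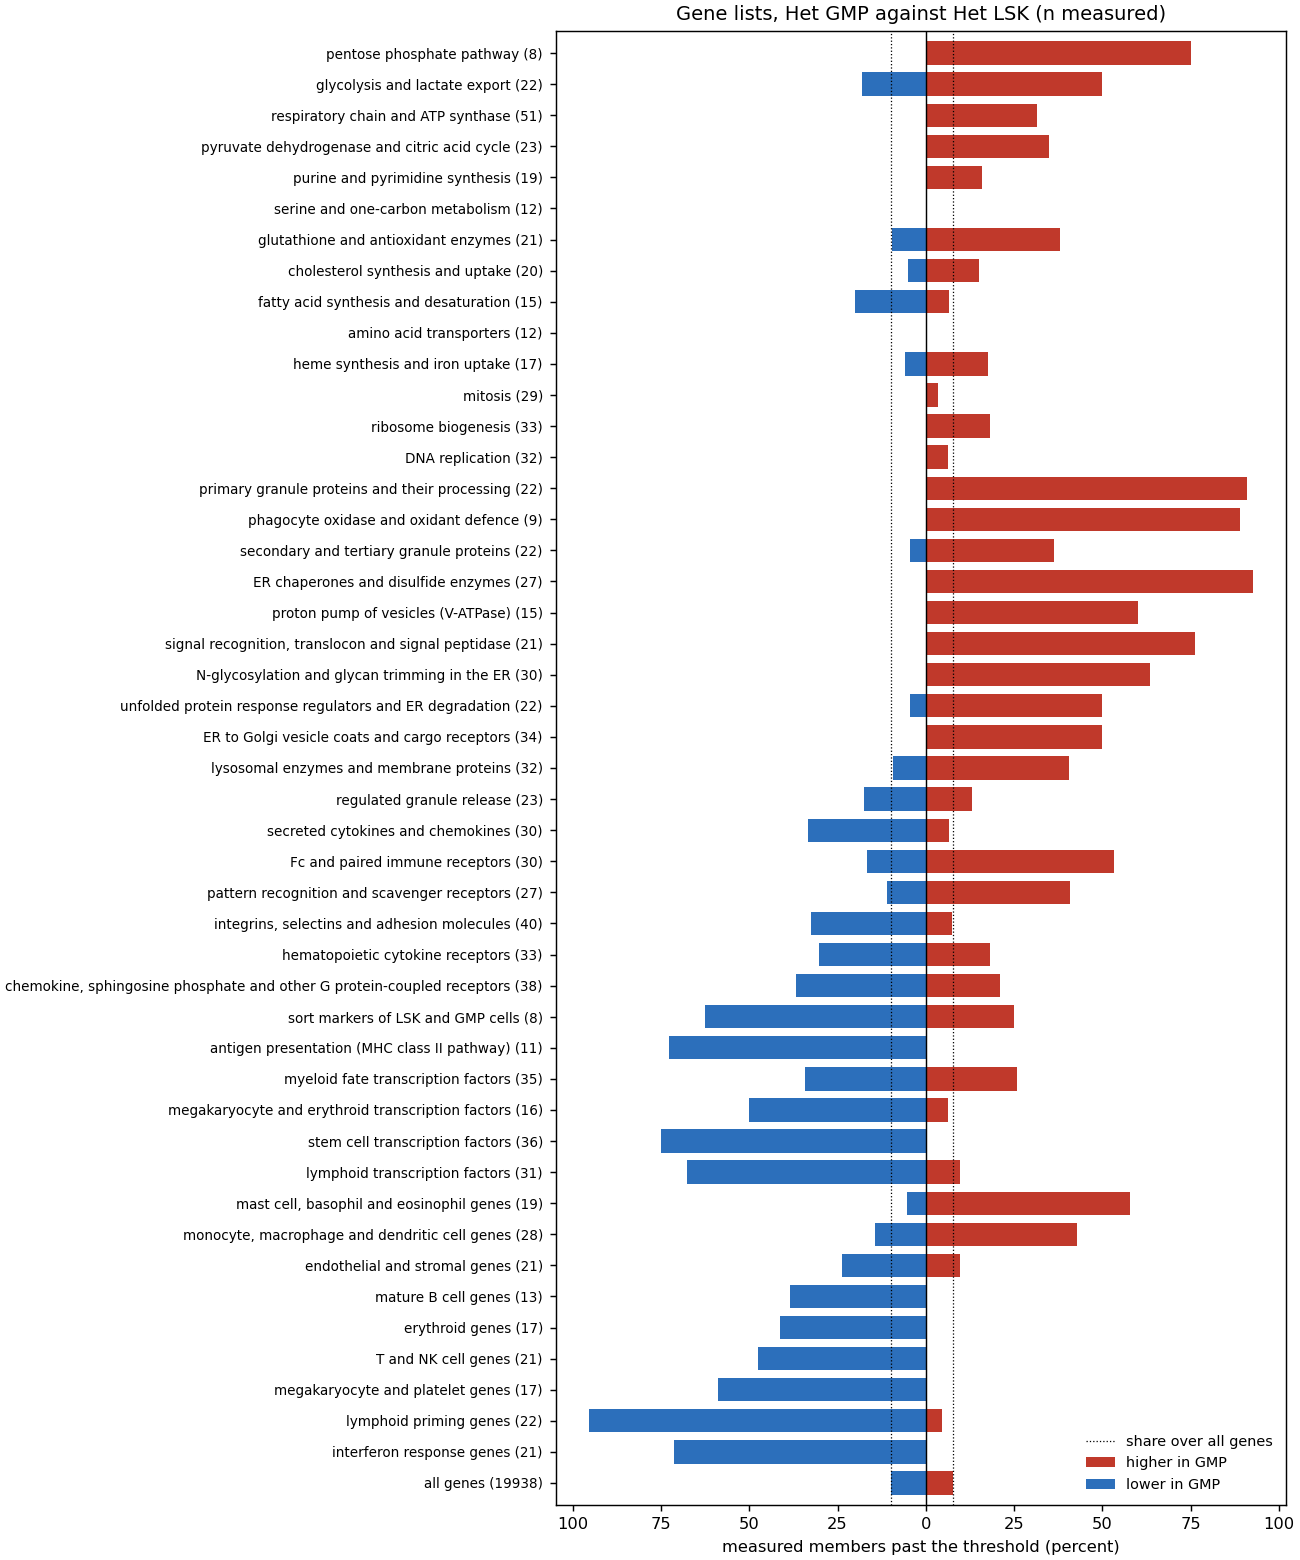
Share of the measured members of each gene list that rose (red, to the right) or fell (blue, to the left) in Het GMP, in percent. Numbers in brackets are measured members, and dotted lines mark the shares over all genes, 7.82% higher and 9.74% lower. Among the genes of highest level the shares are 16.1% higher and 11.8% lower. ER chaperones and primary granule genes reach furthest to the right, and lymphoid priming genes furthest to the left.

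The list of primary granule proteins and their processing rose almost as a whole. Not all members are granule cargo: the list also holds Ms4a3, Clec12a and Igsf6, the inhibitor genes Serpinb1a and Serpinb10, and eosinophil genes. Of 22 measured members 20 rose and 0 fell, with a median difference of 1.99 against 0.0079 for all genes. Elane, neutrophil elastase, read 6.73 and 7.77 in LSK and 11.93 and 11.95 in GMP and rose by 4.69, 25.9-fold (SE 0.29, adjusted p = 2.03e-05). The groups did not overlap, though the LSK arrays lay apart by more than the GMP arrays. Prtn3, proteinase 3, read 9.66 and 9.41 and then 12.32 and 12.30 (difference 2.77, adjusted p = 2.09e-05). Ctsg, cathepsin G, read 9.67 and 9.30 and then 12.21 and 12.28 (difference 2.76, adjusted p = 6.01e-05). Prss57, a protease gene of the same granules, rose by 3.24 (adjusted p = 0.000149) (its neighbours in the reference's gene order include Prtn3 and Elane).

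Mpo, myeloperoxidase, read 11.48 and 11.41 in LSK and 12.65 and 12.70 in GMP, and its difference of 1.23 (adjusted p = 0.00202) was among the smaller ones of the list. Fcnb, ficolin B, rose by 3.90, and Igsf6, a receptor gene of the immunoglobulin superfamily, by 3.54. Serpinb1a, an inhibitor of the granule proteases, rose by 1.40, and Srgn, the proteoglycan that packs them, by 0.61 (adjusted p = 0.00499). Ctsc, the protease that activates the serine proteases, and Lyz2, lysozyme, missed the threshold at 0.23 (adjusted p = 0.393) and 0.22 (adjusted p = 0.679). The list's mean level was 7.64 and 7.79 in the LSK arrays and 9.92 and 9.97 in the GMP arrays.

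Among the risers, 3 genes, Prg2, Prg3 and Epx, encode eosinophil granule proteins. Prg2 read 5.02 and 7.24 in LSK and 9.95 and 9.89 in GMP, a difference of 3.79 (adjusted p = 0.00311). The eosinophil peroxidase gene Epx rose by 1.46 (adjusted p = 0.000291). Basophil and mast cell genes went the same way. Of 19 mast cell, basophil and eosinophil genes 11 rose and 1 fell, with a median of 0.87. Prg2 and Prg3 are members of this list too, so they are counted in both lists. Hdc, the histamine-forming enzyme, rose by 3.72, Mcpt8, a basophil protease, by 2.62, and Ms4a2, the beta chain of the IgE receptor, by 2.10. The one member that fell was Gata2, a transcription factor of stem cells and mast cells. The list's mean level was 4.12 and 4.48 in the LSK arrays and 5.36 and 5.46 in the GMP arrays. The share of such cells in the GMP gate was not tested.

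Secondary and tertiary granule genes were less settled, with 8 of 22 higher and 1 lower at a median of 1.30. Here too not all members are granule cargo, since the list also holds Ltb4r1 and Padi4. Hp, haptoglobin, read 6.56 and 7.24 in LSK and 11.10 and 11.09 in GMP and rose by 4.19 (adjusted p = 1.02e-05). Pglyrp1, a bactericidal protein, rose by 2.77 and the leukotriene B4 receptor gene Ltb4r1 by 3.0. The classic cargo genes did not pass: Ltf, lactoferrin, read 6.34 and 8.42 in LSK and 8.29 and 9.70 in GMP (difference 1.62, adjusted p = 0.138), and its groups overlapped. Lcn2 read 7.57 and 9.60 and 10.002 and 10.85 (difference 1.84, adjusted p = 0.0526), and Ngp read 7.95 and 9.85 and 10.13 and 11.01 (difference 1.67, adjusted p = 0.108).

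In all 3 genes Het LSK replicate 2 lay well above Het LSK replicate 1, and Het GMP replicate 2 above Het GMP replicate 1. Over the list the mean level was 6.0 and 7.04 in the LSK arrays and 7.55 and 8.18 in the GMP arrays. The count of risers was 16 without Het LSK replicate 2, 5 without Het LSK replicate 1 and 5 without Het GMP replicate 2, and the median was 1.58, 0.65 and 0.88. Padi4, a peptidyl arginine deiminase of neutrophils, was the exception and fell by 1.32 (adjusted p = 0.000235). The part of more mature granulocytes in these arrays was not tested.

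Genes of the NADPH oxidase, which makes superoxide, rose with those of the granules. Of 9 genes for the phagocyte oxidase and its oxidant defence, 8 rose, with a median of 1.46. Cybb, the catalytic subunit, read 5.45 and 6.6 in LSK and 8.85 and 9.09 in GMP (difference 2.95, adjusted p = 0.00107), and its groups lay far apart. The membrane partner Cyba rose by 1.54, the cytosolic subunits Ncf1 and Ncf4 by 1.87 and 1.28, and the proton channel Hvcn1 by 2.25.

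Genes for protein folding in the ER rose in number too. Of 27 ER chaperones and disulfide enzymes 25 rose and 0 fell, with a median of 1.08. Fkbp11, a prolyl isomerase of secretory cells, read 5.76 and 5.32 in LSK and 7.98 and 7.54 in GMP (difference 2.22, adjusted p = 0.000214). Sdf2l1, a cofactor of the chaperone BiP, rose by 2.11, and Ero1a, the oxidase that renews disulfide bonds, by 1.95. Hyou1, an ER chaperone of the HSP70 family, rose by 1.5, and the disulfide isomerases P4hb, Pdia4 and Pdia6 by 1.51, 1.42 and 1.21. Calr, calreticulin, rose by 1.31. For Fkbp11 the 2 groups did not overlap, and they lay further apart than the arrays of each pair.

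Import into the ER and sugar transfer followed. Of 21 genes for signal recognition, the translocon and signal peptidase, 16 rose and 0 fell (median 0.63), led by Ssr2, a subunit of the translocon-associated complex, at 1.23, and by Sec61a1, the channel itself, at 1.07 (adjusted p = 0.00059). Of 30 N-glycosylation and glycan-trimming genes 19 rose and 0 fell (median 0.62). Rpn1 and Ddost, subunits of the oligosaccharyltransferase, rose by 1.12 and 1.02, and its catalytic subunits Stt3a and Stt3b by 0.71 and 0.72. Uggt1, which returns misfolded glycoproteins for another round of folding, rose by 0.97. These changes were small beside those of the granule genes, and many calls rested on all arrays. Without Het LSK replicate 2 or without Het GMP replicate 1, 10 translocon and 11 N-glycosylation genes rose, and without Het GMP replicate 1, 16 ER chaperones rose.

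Lists for control and export of ER proteins had smaller shares of risers. Of 22 regulators of the unfolded protein response and of ER degradation 11 rose and 1 fell (median 0.53). Edem1, which hands glycoproteins to degradation, rose by 1.64, Selenos by 1.40, and Xbp1, a transcription factor of secretory cells, from 7.28 and 7.57 to 8.28 and 8.44, a difference of 0.93 (adjusted p = 0.00173). The sensor gene Ern1 and the stress factor gene Ddit3 did not pass, at 0.54 (adjusted p = 0.0772) and 0.036 (adjusted p = 0.923). The count of risers was 7 without Het LSK replicate 1, without Het LSK replicate 2 or without Het GMP replicate 2. Of 34 genes for vesicle coats and cargo receptors between ER and Golgi 17 rose and 0 fell (median 0.46). Tmed3 rose by 2.0, the coat subunit Sec24d by 1.67, and the cargo receptors Lman1 and Surf4 by 1.31 and 1.25.

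Genes of the proton pump and of lysosomes rose in part. Of 15 subunits of the V-ATPase, the proton pump of lysosomes and granules, 9 rose and 0 fell (median 0.70). Its accessory subunit Atp6ap2 read 5.99 and 6.04 in LSK and 7.85 and 7.94 in GMP (difference 1.88, adjusted p = 2.71e-05). Of 32 lysosomal genes 13 rose and 3 fell (median 0.23), and 8 rose without Het GMP replicate 2. Of the 3 fallers 0 remained without Het LSK replicate 2 or without Het GMP replicate 1, and 1 without Het LSK replicate 1 or without Het GMP replicate 2. Cathepsin genes Ctsh, Ctsz and Ctsb rose by 1.71, 1.43 and 1.04, Gla, the alpha-galactosidase, by 1.70, and Neu1, the sialidase, by 1.56. Of 23 genes for stimulated granule release 3 rose and 4 fell, with a median of -0.13, which turned to 0.023 with array medians subtracted. Rab44 rose by 2.02 and Rab27a, a small GTPase of granule docking, by 0.90, while Rab37 fell by 2.03 and Rab38 fell by 1.48. Without Het LSK replicate 2 or without Het GMP replicate 1, 2 of these genes fell.

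**Figure D3:**
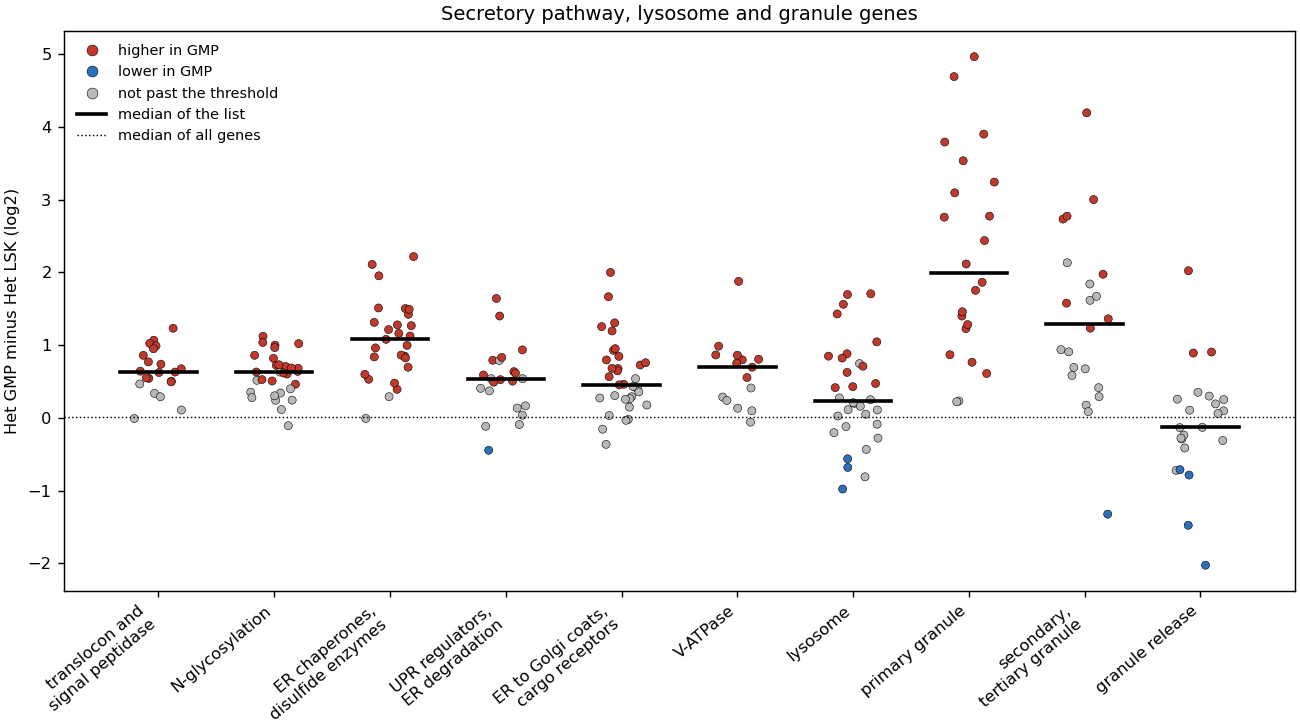
Het GMP minus Het LSK difference (log2, y axis) of each measured gene in 10 lists of the secretory pathway, lysosome and granules. Red points rose, blue points fell, grey points did not pass; thick bars are list medians, and the dotted line is the median of all genes, 0.0079. The primary granule list, which holds more than granule cargo, reaches the largest differences (median 1.99), ER chaperones centre on 1.08, and granule release centres on -0.13.

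Among genes for secreted signalling proteins more fell than rose. Of 30 cytokine and chemokine genes 2 rose and 10 fell, with a median of -0.14, which turned to 0.015 with array medians subtracted. Angpt1, a ligand of the Tie2 receptor, read 9.22 and 9.61 in LSK and 5.83 and 6.64 in GMP and fell by 3.18 (adjusted p = 9.32e-05). Il18 fell by 3.14, and the chemokine genes Ccl4 and Ccl5 fell by 2.48 and fell by 2.21. Vegfa, the vascular growth factor, rose by 1.23 (adjusted p = 0.000656). The count of fallers was 5 without Het LSK replicate 2 or without Het GMP replicate 1, and that of risers was 1 without Het LSK replicate 1 or without either Het GMP array.

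In metabolism the list with the largest share of risers was the pentose phosphate pathway, which supplies the NADPH for the oxidase and for biosynthesis. Of 8 measured genes 6 rose and 0 fell, with a median of 0.88. Pgd, the phosphogluconate dehydrogenase that makes NADPH, read 8.38 and 8.25 in LSK and 10.31 and 10.27 in GMP (difference 1.97, adjusted p = 9.81e-05). Rpia, the ribose phosphate isomerase, rose by 1.40, and the sugar-exchanging enzymes Tkt and Taldo1 by 0.89 and 0.86. The NADPH-forming Idh1 of the cytosol, listed with the citric acid cycle, read 6.35 and 6.31 and then 8.50 and 8.50 (difference 2.17, adjusted p = 0.000129). For Pgd and Idh1 alike the cell types did not overlap.

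Some glutathione enzymes gave larger single changes, though a smaller share of their list rose. Of 21 glutathione and antioxidant genes 8 rose and 2 fell (median 0.23). Gsr, glutathione reductase, read 7.23 and 7.32 in LSK and 9.96 and 9.99 in GMP (difference 2.70, adjusted p = 6.18e-06). Gpx3, the secreted glutathione peroxidase, rose by 3.0, the microsomal transferases Mgst1 and Mgst2 by 2.21 and 1.76, and Gstm1 by 2.0. Prdx4, the peroxiredoxin of the ER, fell by 1.04 (adjusted p = 0.00532). It was the only faller in each of the 6 analyses that left out an array other than a KO LSK one.

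Glycolysis genes moved both ways, also between relatives with the same function. Of 22 glycolysis and lactate export genes 11 rose and 4 fell (median 0.46), and 7 rose without Het GMP replicate 1. Hk3, the hexokinase of myeloid cells, read 5.77 and 5.92 in LSK and 7.78 and 8.07 in GMP (difference 2.08, adjusted p = 6.57e-05), and Hk2 rose by 0.91, while Hk1 stood at -0.20 (adjusted p = 0.296). The phosphofructokinase gene Pfkp rose by 1.12 and its relative Pfkm fell by 0.87 (adjusted p = 0.00335). The aldolase gene Aldoa rose by 0.87 and Aldoc fell by 2.12 (adjusted p = 0.000579). The glucose transporter gene Slc2a3 fell by 1.83 and Pgam1 rose by 1.35.

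Mitochondrial genes rose in part, by small steps. Of 51 respiratory chain and ATP synthase genes 16 rose and 0 fell (median 0.39), and of 23 pyruvate dehydrogenase and citric acid cycle genes 8 rose and 0 fell (median 0.36). Ndufb3 of complex I rose by 1.07, cytochrome c (Cycs) by 1.00 and Uqcrc1 of complex III by 0.73 (adjusted p = 0.00377). These counts leaned on single arrays. The respiratory count was 3 without Het LSK replicate 2, 4 without Het GMP replicate 1 and 3 without Het GMP replicate 2, and the citric acid cycle count was 2, 2 and 3. With array medians subtracted the counts were 32 and 14.

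Heme and lipid synthesis changed at single steps. Alas1, the rate-limiting first enzyme of heme synthesis outside red cells, read 7.5 and 7.48 in LSK and 10.55 and 10.61 in GMP and rose by 3.09, 8.54-fold (SE 0.13, adjusted p = 3.83e-06). It was the only gene of the 17 in the heme and iron list that rose in every analysis with 1 array left out. The erythroid enzyme Alas2 stood at -0.31 (adjusted p = 0.437). In total 3 heme and iron genes rose and 1 fell (median 0.081), and 1 rose without Het LSK replicate 2 or without either GMP array of either genotype. Blvrb, a biliverdin reductase, fell by 0.65 (adjusted p = 0.011), a call that was lost with Het LSK replicate 2 left out (adjusted p = 0.0837), Het GMP replicate 1 (0.0616) or Het GMP replicate 2 (0.0715).

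Of 20 cholesterol genes 3 rose and 1 fell (median 0.16), 5 rose without Het GMP replicate 2, and 8 rose with array medians subtracted (median 0.32). Fdps, farnesyl diphosphate synthase, read 6.74 and 6.43 in LSK and 8.35 and 8.01 in GMP (difference 1.60, adjusted p = 0.000244), and Ebp rose by 0.92. Srebf2, the transcription factor that drives the pathway, fell by 1.14 (adjusted p = 0.0021). The squalene epoxidase gene Sqle stood at -0.31 and did not pass (adjusted p = 0.298). The difference was positive for 14 of the 20 genes. Of 15 fatty acid genes 1 rose and 3 fell (median 0.15): the desaturases Fads2 and Fads1 fell by 2.29 and fell by 1.02, and the elongase Elovl6 fell by 1.10. The one riser, Elovl5, at 0.48 (adjusted p = 0.0197), was lost without any one of the 4 Het arrays.

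Growth and division genes gave few calls on the deposited scale. Of 29 mitosis genes 1 rose (median 0.45), of 32 DNA replication genes 2 (median 0.21), of 33 ribosome biogenesis genes 6 (median 0.23) and of 19 purine and pyrimidine synthesis genes 3 (median 0.30), and 0 fell in these lists. With array medians subtracted the risers were 3, 4, 12 and 7 in that order, and with all rows tested 0, 1, 0 and 1. In limma's test 0 of 12 serine and one-carbon genes passed, with 3 higher and 1 lower at an unadjusted p under 0.05, and 0 of 12 amino acid transporters, with 1 higher and 1 lower at that level. The mitosis count rose to 15, and the replication count to 8, without either KO LSK array or with only the 4 Het arrays fitted. Without any one Het array the mitosis count was 0, and the replication count was 0 without Het LSK replicate 2 or without Het GMP replicate 1 and 1 without Het LSK replicate 1, without Het GMP replicate 2 or without either KO GMP array. Ribosome biogenesis had 0 risers without Het LSK replicate 2 or without Het GMP replicate 1, 2 without Het GMP replicate 2 or without either KO GMP array, and 3 without Het LSK replicate 1. Nucleotide synthesis had 0 without Het LSK replicate 2 or without Het GMP replicate 1, 1 without Het GMP replicate 2 and 6 without either KO LSK array. The serine list had 1 riser without Het LSK replicate 1 and 1 riser and 1 faller without either KO LSK array, and the transporter list 1 riser without either KO GMP array.

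On the cell surface, Fc receptors and paired receptors had the largest share of risers among the surface lists. Of 30 such genes 16 rose and 5 fell (median 0.69). Trem3, an activating receptor of myeloid cells, read 4.89 and 5.29 in LSK and 9.47 and 9.27 in GMP (difference 4.28, adjusted p = 3.06e-06), next to Fcgr3 above. Pilrb1 rose by 2.45, Siglece by 2.18 and Trem1 by 2.05. The signalling chains that such receptors need, Fcer1g and Tyrobp, rose by 1.59 and 1.38 from 8.64 and 8.71 and from 9.46 and 9.49 in LSK. Cd244a, a receptor of the SLAM family, fell by 1.79 (adjusted p = 0.000155).

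Receptors for microbial patterns and scavenger receptors followed. Of 27 genes 11 rose and 3 fell (median 0.17). Clec5a, a lectin receptor of myeloid cells, read 3.38 and 3.56 in LSK and 7.96 and 7.75 in GMP (difference 4.39, adjusted p = 3.19e-06). Clec4a2 rose by 3.63, Clec12a by 3.09 and Cd14, the lipopolysaccharide co-receptor, by 2.98. Of the Toll-like receptors Tlr1 rose by 1.82 and Tlr4 by 0.76, Tlr2 missed the threshold at 0.33 (adjusted p = 0.0844), and Tlr7, a sensor of RNA, fell by 2.44 (adjusted p = 7.77e-05). The count of fallers was 1 without Het GMP replicate 1 and 5 without either KO LSK array.

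Cytokine receptor genes moved both ways. Of 33 genes 6 rose and 10 fell (median -0.17), and 3 rose without Het GMP replicate 2. On values with array medians subtracted 10 rose and 9 fell (median -0.019). Flt3, the receptor of multipotent and lymphoid-primed cells, read 10.20 and 10.28 in LSK and 5.75 and 6.23 in GMP and fell by 4.25 (adjusted p = 2.61e-05). Il7r, the receptor that lymphoid progenitors need, read 7.42 and 7.16 and then 3.40 and 3.42 (difference -3.88, adjusted p = 2.85e-05). Both genes' groups were far apart. Tek, the Tie2 receptor for Angpt1, fell by 1.84.

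Of the myeloid receptors, Csf1r, the M-CSF receptor, rose from 6.27 and 5.79 to 7.68 and 7.74 (difference 1.68, adjusted p = 0.00184), and Csf2ra, a chain of the GM-CSF receptor, rose by 1.19. The G-CSF receptor gene Csf3r read 8.52 and 8.66 in LSK and 8.79 and 8.75 in GMP, and its difference of 0.18 did not pass (adjusted p = 0.534). The interferon gamma receptor gene Ifngr1 rose by 1.60.

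Among G protein-coupled receptors more genes fell than rose. Of 38 genes 8 rose and 14 fell (median -0.27), and 5 rose without Het GMP replicate 2. The fallers were 12 with array medians subtracted (median -0.11). Adgrg1, known as GPR56 and marking stem cells, read 10.53 and 10.47 in LSK and 7.91 and 7.63 in GMP (difference -2.73, adjusted p = 1.39e-05). The thrombin receptor gene F2r fell by 2.69, the sphingosine phosphate receptor gene S1pr1, which guides exit into blood and lymph, fell by 2.67, and P2ry14 fell by 2.64. Gpr141 and Ltb4r1 rose by 3.0 and 3.0, and Ccr2, the chemokine receptor of monocytes, by 2.28.

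Of 40 adhesion genes 3 rose and 13 fell (median -0.16), 5 rose without either KO LSK array, and 7 rose with array medians subtracted. Emcn, endomucin, read 7.39 and 7.64 in LSK and 3.65 and 3.52 in GMP and fell by 3.93 (adjusted p = 2.32e-06). The junction protein gene F11r fell by 2.61, Procr, the protein C receptor used to find stem cells, fell by 2.51, and Esam, another stem cell surface gene, fell by 1.83. The 3 risers were Vcam1 (2.92), the integrin chain gene Itga1 (2.63) and Ncam1 (2.42). Emcn and Vcam1 also mark endothelium, whose other markers are given below.

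Most genes of antigen presentation by MHC class II fell. Of 11 genes 8 fell and 0 rose (median -1.38). Cd74, the invariant chain, read 7.35 and 8.27 in LSK and 5.24 and 5.33 in GMP (difference -2.53, adjusted p = 0.000218). The chain genes H2-Aa, H2-Eb1 and H2-Ab1 fell by 2.25, fell by 2.0 and fell by 1.80, and H2-Ob, a chain of H2-O, which restrains peptide exchange, fell by 3.12. Ciita, the regulator of the whole group, stood at -0.49 and did not pass (adjusted p = 0.0922).

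Among transcription factors the C/EBP family led the gains. Cebpe, needed for the later granule genes, read 5.12 and 6.06 in LSK and 8.73 and 8.75 in GMP and rose by 3.15 (SE 0.25, adjusted p = 6.25e-05). Cebpd read 5.53 and 5.64 and then 7.51 and 7.87 (difference 2.10, adjusted p = 3.17e-05). Cebpa, without which GMP cells do not form, read 6.50 and 6.61 and then 8.26 and 8.23 (difference 1.69, adjusted p = 0.000184). For all 3 both GMP arrays lay above both LSK arrays. Cebpb rose by 0.54 (adjusted p = 0.024), a call that was lost with Het LSK replicate 1 left out (adjusted p = 0.0553), Het LSK replicate 2 (0.146), Het GMP replicate 1 (0.148) or Het GMP replicate 2 (0.0796).

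Spi1, the gene of PU.1, read 8.69 and 8.54 in LSK and reached 9.73 and 9.58 in GMP (difference 1.04, adjusted p = 0.003). Gfi1, a repressor that favours granulocytes, rose by 1.23 (adjusted p = 0.000492). Irf8, which favours monocytes, rose by 1.24 (adjusted p = 0.00794), a call that was lost with Het LSK replicate 2 left out (adjusted p = 0.0671) or Het GMP replicate 2 (0.0627). Runx1, the partner of Cbfb in blood progenitors, read 9.09 and 9.13 in LSK and 8.69 and 8.74 in GMP, a difference of -0.39 that did not pass (adjusted p = 0.136), although its groups did not overlap.

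Of the 35 factors in the myeloid list 9 rose and 12 fell (median -0.17), and 5 rose without Het GMP replicate 2, so the list did not move one way. The immediate early genes were on the falling side: Egr1 read 8.71 and 9.02 in LSK and 5.12 and 5.79 in GMP (difference -3.40, adjusted p = 2.98e-05), Nr4a1 fell by 3.21 and Fosb fell by 1.25. The interferon regulatory factor genes Irf7 and Irf1 fell by 1.90 and fell by 1.04, beside the interferon genes below.

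Most genes in the stem cell factor list fell. Of 36 genes 27 fell and 0 rose, with a median of -0.97. Mecom, the EVI1 gene, fell by 3.49 (SE 0.26, adjusted p = 4.52e-05). Meis1, a homeobox partner of Hoxa9, read 9.33 and 9.64 in LSK and 6.0 and 6.24 in GMP (difference -3.36, adjusted p = 2.5e-05), and Hlf read 9.16 and 9.44 and then 6.14 and 6.14 (difference -3.16, adjusted p = 9.02e-05). In each case both GMP arrays lay far below both LSK arrays.

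Mycn fell by 2.52, Gata2 fell by 1.94, and the Hox genes Hoxa5, Hoxa9 and Hoxa7 fell by 2.24, fell by 1.51 and fell by 1.19. Hoxb4 stood at -0.079 (adjusted p = 0.77), Bmi1 at -0.26 (adjusted p = 0.259) and Myb, which progenitors of all kinds need, at 0.13 (adjusted p = 0.664), and these did not pass.

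Factors of the other lineages also fell in number. Of 31 genes in the lymphoid factor list 21 fell and 3 rose (median -1.28), and 1 rose without Het LSK replicate 2. Not all members are transcription factors, since the list also holds the recombinase genes Rag1 and Rag2. Ebf1, the factor of B cell commitment, read 6.93 and 6.79 in LSK and 2.89 and 3.14 in GMP and fell by 3.85 (adjusted p = 1.1e-05). Bcl11a and Tcf4, needed for lymphoid and dendritic cells, fell by 1.55 and fell by 1.5, and Gata3, the T cell factor, fell by 1.58. Satb1 fell by 1.92 (adjusted p = 0.00816), a call that was lost with Het LSK replicate 2 left out (adjusted p = 0.051) or Het GMP replicate 1 (0.0639).

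Of 16 megakaryocyte and erythroid factors 8 fell and 1 rose (median -0.47), and 5 fell without Het LSK replicate 1, without Het LSK replicate 2 or without Het GMP replicate 2. The riser was lost without any one of the 4 Het arrays. Zfpm1, the GATA cofactor FOG1, fell by 2.17 (adjusted p = 2.22e-05), and Gfi1b, the relative of Gfi1 in these lineages, fell by 1.55. Gata1 read 5.49 and 5.64 in LSK and 5.07 and 4.65 in GMP (difference -0.70, adjusted p = 0.025), a call that was lost with Het LSK replicate 1 left out (adjusted p = 0.064), Het LSK replicate 2 (0.147) or Het GMP replicate 2 (0.171). Klf1, the erythroid factor, stood at -0.42 and did not pass (adjusted p = 0.0847).

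**Figure D4:**
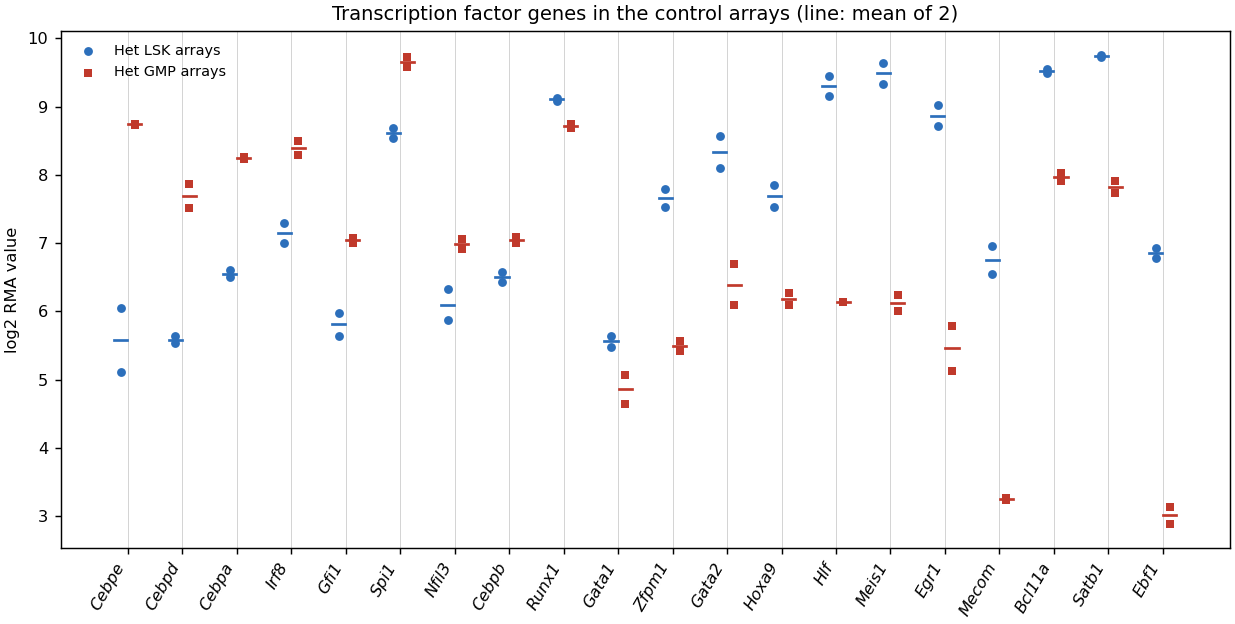
Log2 value (y axis) of 20 transcription factor genes in each of the 2 Het LSK arrays (blue circles) and the 2 Het GMP arrays (red squares), with a line at each mean of 2. The C/EBP genes, Irf8, Gfi1 and Spi1 lie higher in GMP; Runx1 differs little, and Mecom, Meis1, Hlf, Egr1 and Ebf1 lie far lower in GMP.

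Many genes that mark the other lineages fell as well. Of 22 lymphoid priming genes 21 fell and 1 rose, with a median of -2.25. Gimap6, of a GTPase family of lymphocytes, read 9.0 and 9.26 in LSK and 4.04 and 3.92 in GMP (difference -5.15, adjusted p = 2.79e-06). Vpreb1, part of the surrogate light chain, fell by 3.51, and Rag1, the recombinase, fell by 2.93. The exception was Lair1, an inhibitory receptor that myeloid cells carry too, which rose by 1.23 (adjusted p = 0.000262).

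A smaller share of the mature lymphocyte lists passed. Of 13 mature B cell genes 5 fell and 0 rose (median -0.45). The early members led: Blnk fell by 3.91, Vpreb3 fell by 3.72 and Cd79a fell by 3.42. Ms4a1, the CD20 gene of mature B cells, read 2.66 and 2.65 in LSK and 2.72 and 2.42 in GMP (difference -0.088, adjusted p = 0.831), near the low end of the scale in all 4 arrays. In the list of T and NK cells 10 of 21 genes fell and 0 rose (median -0.50), with 5 fallers without Het LSK replicate 1, 4 without Het GMP replicate 1 and 6 without Het GMP replicate 2. Klrd1 fell by 2.70, Lat fell by 2.58 and Thy1 fell by 2.27, while Cd3e stood at -0.32 (adjusted p = 0.22). The B cell list's mean level was 5.45 and 5.22 in the LSK arrays and 4.05 and 4.12 in the GMP arrays, and that of the T and NK list 4.51 and 4.40 against 3.74 and 3.71.

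Of 17 megakaryocyte and platelet genes 10 fell and 0 rose (median -0.98). Mmrn1, multimerin, read 6.59 and 7.19 in LSK and 3.11 and 3.41 in GMP (difference -3.63, adjusted p = 1.54e-05), and Plek fell by 1.93. Gp5 and Itga2b, surface proteins of platelets, fell by 1.81 and fell by 1.45. Of 17 erythroid genes 7 fell and 0 rose (median -0.49), with 3 fallers without Het LSK replicate 2, 3 without Het GMP replicate 1 and 4 without Het GMP replicate 2. Car2, a carbonic anhydrase, fell by 3.46 and Tfr2, the second transferrin receptor, fell by 1.41.

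Monocyte, macrophage and dendritic cell genes rose in part: of 28 genes 12 rose and 4 fell (median 0.42). F13a1, the A chain of coagulation factor XIII, read 5.51 and 4.97 in LSK and 9.30 and 9.30 in GMP (difference 4.06, adjusted p = 1.3e-05), and Slpi, a protease inhibitor, rose by 3.17. The dendritic integrin gene Itgax fell by 1.09 (adjusted p = 0.00214). Among 21 markers of endothelium and stroma 2 rose and 5 fell (median -0.047, or 0.11 with array medians subtracted). Their mean level was 4.67 and 4.87 in the LSK arrays and 4.46 and 4.41 in the GMP arrays. The defining endothelial gene Cdh5 read 3.36 and 3.34 in LSK and 3.17 and 3.36 in GMP.

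Interferon response genes fell without an exception among those called. Of 21 genes 15 fell and 0 rose, with a median of -1.28. Iigp1, an interferon-induced GTPase, read 7.16 and 6.75 in LSK and 3.93 and 3.81 in GMP (difference -3.09, adjusted p = 1.3e-05). Oasl2 fell by 2.36, Ifit3 fell by 2.28 and Mx2, an antiviral GTPase, fell by 2.19. The list's mean level was 6.94 and 6.67 in the LSK arrays and 5.62 and 5.38 in the GMP arrays, so the groups stood further apart than the arrays within them.

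The last question was where the control's change differed from that of the knockout. The KO change minus the Het change was called in 499 of 21789 rows (2.29%), 368 of them above and 131 below 0. Among the 3813 rows called in Het, 451 were called (11.8%). Of these, 330 were rows that fell in Het and fell less or rose in KO, 107 were rows that rose in Het and rose less or fell in KO, and the remaining 14 were larger in KO in the direction they took in Het. The Het arrays enter both quantities, so these directions are not independent of the selection. In the knockout alone, 1318 rows were called.

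For Dntt, the difference was -7.19 in Het and -1.72 in KO, where it started lower. For Il7r it was -3.88 and -0.019, and for the secreted protein gene Wfdc17 it was -5.44 and -1.17. A smaller fall in KO can mean a lower level in KO LSK or a higher level in KO GMP. The changes given here, for single genes and for lists, do not separate these. Ccl3 fell by 1.5 in Het and stood at 2.81 in KO. Its Het call was lost with Het LSK replicate 2 left out (adjusted p = 0.136) or Het GMP replicate 1 (0.153). Pdzk1ip1 stood at -2.39 in Het and 1.33 in KO.

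Among genes that gained more in Het, Ly6a2 stood at 3.85 in Het and 0.61 in KO, and Gpr141 at 3.0 and 0.20. Aoah, which inactivates lipopolysaccharide, stood at 3.11 and 0.37, Papss2 at 3.17 and 0.53, and the mast cell protease gene Cpa3 at 1.21 and -1.79. Cebpa stood at 1.69 in Het and 0.43 in KO, and the difference between genotypes was -1.27 (adjusted p = 0.0294). That call was lost with Het LSK replicate 1 left out (adjusted p = 0.0948), Het LSK replicate 2 (0.0907), KO LSK replicate 2 (0.0714), Het GMP replicate 1 (0.122), Het GMP replicate 2 (0.105) or KO GMP replicate 2 (0.0655). For Papss2 the corresponding call was lost with Het LSK replicate 1 left out (adjusted p = 0.0837), Het LSK replicate 2 (0.0783), Het GMP replicate 1 (0.0924), Het GMP replicate 2 (0.0999), KO GMP replicate 1 (0.0833) or KO GMP replicate 2 (0.0791), and that for Ly6a2 with Het LSK replicate 1 left out (adjusted p = 0.052), KO LSK replicate 1 (0.0786), KO LSK replicate 2 (0.0777), Het GMP replicate 1 (0.142), Het GMP replicate 2 (0.158) or KO GMP replicate 2 (0.149). Elane and Ms4a3 gave 4.69 and 4.97 in Het and 4.61 and 4.68 in KO, and their differences between genotypes did not pass (adjusted p = 0.969 and 0.707).

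Over all genes the KO change was called above the Het change in 343 of 19938 (1.72%) and below it in 108 (0.542%). By list, it was called above the Het change for 13 of 22 genes of lymphoid priming and 10 of 17 of megakaryocytes, and below it for 6 of 19 genes of mast cells, basophils and eosinophils. Of the 22 primary granule genes 1 was above and 2 were below, and of the 27 ER chaperone genes 0 were above and 2 below. The medians in Het and KO were -2.25 and -0.50 for lymphoid priming, -0.98 and 0.18 for megakaryocyte genes, 1.99 and 2.41 for primary granule genes and 1.08 and 0.70 for ER chaperones.

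**Figure D5:**
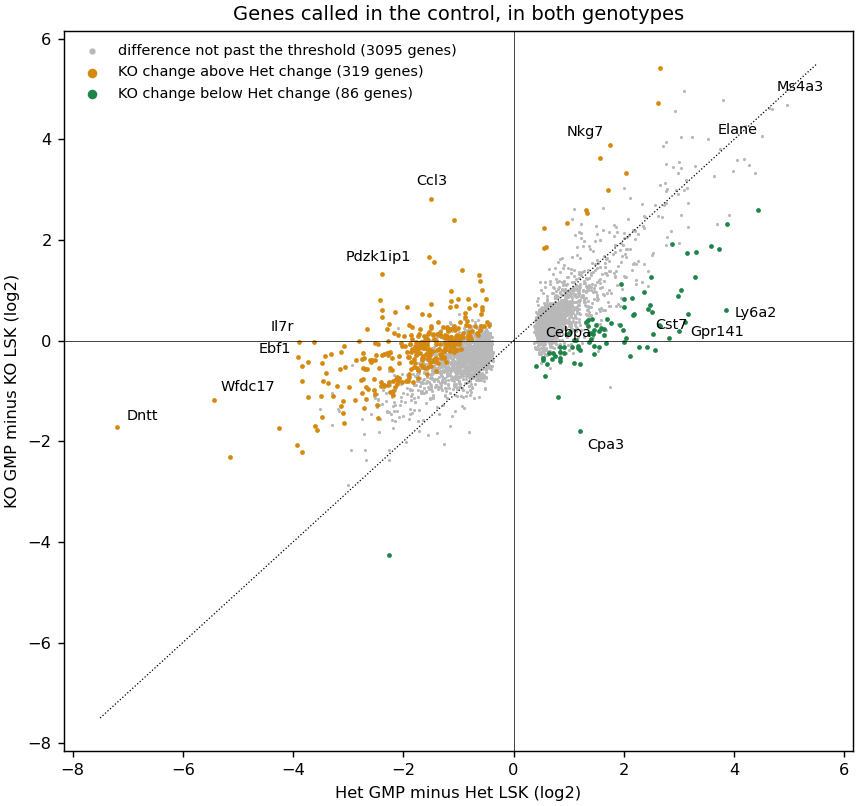
GMP minus LSK difference (log2) in Het (x axis) and in KO (y axis) of each gene called in Het; the dotted line marks equal changes. Orange genes have a KO change above the Het change and green genes one below, both by limma's test of the difference; grey genes did not pass it. Dntt, Il7r and Ebf1 fall far less in KO, and Ms4a3 and Elane lie near the line. Both axes rest on the same fit, and genes were selected on the x axis.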

How the data were processed

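RNA of sorted LSK and GMP cells was hybridised to 8 arrays of the type Mouse Gene 1.0 ST (Affymetrix), 2 per group. The authors deposited log2 values from RMA, per the submitters' processing notes. Its software, version and genome build were not given in the sources used here. RMA gives all arrays nearly the same distribution, which hides any global change in RNA content, and it gives no detection call. RNA was amplified before labelling, per the labels' protocols, which can compress differences.

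Of 35556 rows, 21789 had exactly 1 symbol, 1621 several and 12146 none, and 21698 matched a RefSeq gene table by Entrez number. For 999 genes with several rows, the brightest one by its mean over all 8 arrays was used. Of these, 1 gene had rows called in opposite directions.

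Differences were fitted with limma 3.58.1 (R 4.3.3), with 1 mean for each of 4 groups over 8 arrays (4 residual and 4.83 prior degrees of freedom), two-sided, with Benjamini-Hochberg adjustment over the 21789 rows and a threshold of 0.05. On simulated data this recovered 74% of changes of 1 and 97% of changes of 2 (log2), and 4.47% of the calls were false. In that simulation few rows changed, and the noise was independent between rows and between arrays. It held no shift shared by a whole array, so these rates need not hold for the deposited values. The 46 gene lists and the comparison itself were chosen with earlier results of these data known. Named genes were the 15 largest rises and falls without overlap between groups, up to 4 called members per list, members of the sort marker, granule, heme, cholesterol and transcription factor lists, and the 5 largest differences each way between genotypes. Further list members, and Lair1, were chosen after their values were seen. Alternatives were all rows, bright rows only, array medians subtracted, the 4 Het arrays alone, a trended and a robust prior, a replicate block, a minimum difference of 1, the mean of a gene's rows, and each array left out in turn. Leaving out a KO array cannot move the Het difference itself and changes only the estimate of the spread. The number of arrays limits the precision.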

Additional observations from a re-analysis of the deposited data

Results flagged for a closer look

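The results here were picked out because the change from LSK to GMP differed between the genotypes by limma's test of that difference. They are given as the KO change minus the Het change on the log2 scale, so a positive value for a gene that fell in Het means a smaller fall or a rise in KO. Such a value does not say whether the LSK or the GMP level differed between the genotypes. In total 499 rows passed, and 69 of the genes named in the text were among them. For 40 of the 69 the difference was called with any 1 of the 8 arrays left out, and for 29 it was not. When the whole table was tested, 40 of the 69 calls were lost, and with array medians subtracted 4 were. The 40 lost with the whole table were all of the 29 and 11 of the 40 that kept their call without single arrays, namely Dntt, Wfdc17, Aoah, Car2, Thy1, Ncam1, P2ry14, Plek, Oasl2, Fads2 and Fcgr2b, at adjusted p = 0.0514 to 0.0712.

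Lymphoid genes among the 40 were Dntt (5.47), Il7r (3.86), Blnk (3.58), Ebf1 (3.34), Vpreb3 (3.29), Cd79a (3.11) and Gimap6 (2.83). T and NK cell genes were Thy1 (2.61), Klrd1 (2.36) and Lat (2.15). Megakaryocyte and erythroid genes were Mmrn1 (3.61), Plek (1.71), F2r (2.13), Car2 (2.65) and Zfpm1 (2.32). Factors of stem cells and of the early response were Meis1 (2.52) and Egr1 (2.77). All of these fell in Het, and the KO change lay above the Het change.

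Surface genes that fell in Het and had a KO change above it were Adgrg1 (1.97), P2ry14 (1.68), Emcn (1.86) and F11r (2.23). The same held for the secreted protein genes Ccl3 (4.30) and Wfdc17 (4.27), the deiminase gene Padi4 (1.42) and Rab37 (1.93) of the granule release list. It also held for the interferon genes Ifit3 (1.99) and Oasl2 (1.46), and for Pdzk1ip1 (3.71), Ctla2a (3.03), Ctla2b (2.61) and the desaturase gene Fads2 (2.05). Genes that rose in Het and had a KO change below it were the receptor genes Gpr141 (-2.80), Ccr2 (-2.40) and Fcgr2b (-1.64), the adhesion genes Ncam1 (-2.55) and Itga1 (-2.32), the mast cell and basophil genes Cpa3 (-2.99) and Ms4a2 (-2.41), Aoah (-2.74) and the cargo sorting gene Tmed3 (-1.16).

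The other 29 lost the call without at least 1 array, and the highest adjusted p of limma over the 8 analyses follows each value. Stem cell and early response genes were Mecom (2.39, highest adjusted p = 0.0634 without Het GMP replicate 1), Nr4a1 (2.31, highest adjusted p = 0.19 without Het GMP replicate 1), Msi2 (1.38, highest adjusted p = 0.144 without Het GMP replicate 1), Procr (2.12, highest adjusted p = 0.0646 without Het GMP replicate 1) and Flt3 (2.51, highest adjusted p = 0.0729 without Het GMP replicate 1). Of the lymphoid and antigen presentation genes there were Bcl11a (1.18, highest adjusted p = 0.0813 without Het GMP replicate 1), Cd74 (1.77, highest adjusted p = 0.166 without Het GMP replicate 1), H2-Ob (1.83, highest adjusted p = 0.166 without Het GMP replicate 1) and Cd244a (1.60, highest adjusted p = 0.0646 without Het GMP replicate 1). Megakaryocyte and erythroid genes were Gata1 (1.41, highest adjusted p = 0.0986 without Het LSK replicate 2), Gp5 (1.45, highest adjusted p = 0.0657 without Het GMP replicate 2), Itga2b (1.60, highest adjusted p = 0.095 without Het LSK replicate 2) and Tfr2 (1.07, highest adjusted p = 0.117 without Het GMP replicate 2). Signalling and receptor genes were Il18 (2.59, highest adjusted p = 0.0551 without Het GMP replicate 1), Ccl5 (1.63, highest adjusted p = 0.0556 without Het GMP replicate 1), S1pr1 (1.76, highest adjusted p = 0.159 without Het LSK replicate 2), Cish (1.91, highest adjusted p = 0.0512 without Het GMP replicate 1) and Iigp1 (1.64, highest adjusted p = 0.0558 without Het GMP replicate 2). Metabolic genes with a KO change above the Het change were Slc2a3 (1.67, highest adjusted p = 0.167 without Het GMP replicate 1) and Txnip (1.39, highest adjusted p = 0.125 without Het LSK replicate 2).

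Genes that rose in Het with a KO change below it, in this second group, were Fcgr3 (-1.84, highest adjusted p = 0.163 without Het GMP replicate 2), Ly6a2 (-3.24, highest adjusted p = 0.158 without Het GMP replicate 2), Papss2 (-2.64, highest adjusted p = 0.0999 without Het GMP replicate 2), Hdc (-1.91, highest adjusted p = 0.148 without Het GMP replicate 2), Far2 (-1.54, highest adjusted p = 0.145 without Het GMP replicate 2), Cebpa (-1.27, highest adjusted p = 0.122 without Het GMP replicate 1), Epx (-1.25, highest adjusted p = 0.101 without KO GMP replicate 2), Pgam1 (-0.93, highest adjusted p = 0.129 without Het GMP replicate 1) and Ero1a (-0.83, highest adjusted p = 0.157 without KO GMP replicate 2).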

How the results depend on the processing

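The count of 3813 rows called between Het GMP and Het LSK stayed within 1.5 times under every alternative but those named here. It was 1348 with a minimum difference of 1 on the log2 scale, and with 1 array left out it ranged from 2078 to 4486. The 499 rows whose change differed between genotypes became 182 when the whole table was tested and 437 with that minimum difference, and ranged from 223 to 705 with 1 array left out. The replicate numbers share only a number, since the labels do not tie them to mice: deviations of same-numbered arrays correlated at 0.13 in Het and 0.18 in KO. With the replicate block, 4162 and 635 rows were called, 3647 of the former shared with the main 3813. Of 232 genes named in the text 210 were called, and 203 of these kept their call with each array left out; the 7 others (Blvrb, Ccl3, Cebpb, Elovl5, Gata1, Irf8 and Satb1) have their values in the report. The replicate block changed no call of a named gene. Testing all rows lost Ccl3 (adjusted p = 0.077), Cebpb (0.0601) and Gata1 (0.0745), and subtracting array medians lost Gata1 (0.0587). Called genes reversed 0 times. Among the 22 named genes that were not called, 7 changed sign. With 1 array left out, Alas2 ranged from -0.62 to 0.0020, Cbfb from -0.030 to 0.090, Cdh5 from -0.18 to 0.014, Ddit3 from -0.14 to 0.21, Hoxb4 from -0.17 to 0.013, Lyz2 from -0.15 to 0.59 and Ms4a1 from -0.24 to 0.060. With array medians subtracted Cdh5 stood at 0.074, Hoxb4 at 0.076 and Ms4a1 at 0.067. With array medians subtracted the medians of 3 of the 46 lists changed sign. The count of secondary granule risers went from 8 to 16 with the replicate block and to 14 with array medians subtracted, and that of respiratory genes from 16 to 9 with all rows tested and to 29 with a trended prior. Other list counts moved by over 1.5 times too. With array medians subtracted, risers went from 3 to 5 for heme and iron and for granule release. With all rows tested, 1 heme gene rose, and fallers went from 3 to 1 for lysosomal genes and for pattern receptors, from 10 to 6 for cytokines and for T and NK genes and from 8 to 5 for megakaryocyte and erythroid factors. With the replicate block, risers went from 1 to 8 for mitosis, from 2 to 4 for replication, from 3 to 6 for nucleotide synthesis and from 0 to 3 for serine metabolism, and fallers from 3 to 5 for pattern receptors. With a trended prior ribosome biogenesis had 10 risers and mitosis 3. The cause of these moves was not tested.

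Limits: with 2 arrays per group a change below 1 (log2) is often missed, rows near the lower end of the scale have compressed differences, and a gene that fell to that level has a difference that is too small. Levels of different genes cannot be ranked from these arrays.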

Other observations

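Several of the largest changes fell outside the lists. Mgam, a maltase-glucoamylase gene, read 3.66 and 3.61 in LSK and 8.22 and 8.31 in GMP (difference 4.63, limma adjusted p = 2.69e-06), and Sgms2, a sphingomyelin synthase, read 4.08 and 4.01 and then 8.68 and 8.43 (difference 4.51, adjusted p = 2.32e-06). Olr1, a receptor for oxidised lipoprotein, rose by 4.19, Prom1, the CD133 gene, by 3.98, and Far2, which makes fatty alcohols, by 3.87. Lta4h, which makes leukotriene B4, rose by 1.83, as did the leukotriene enzyme Alox5, by 1.84, and the receptor Ltb4r1 in the report. Dgat2, the last enzyme of triglyceride synthesis, and G0s2, an inhibitor of lipolysis, rose by 2.37 and 2.36.

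On the falling side, Wfdc17 read 10.13 and 9.45 in LSK and 4.89 and 3.81 in GMP (difference -5.44, adjusted p = 3.06e-05). The cathepsin inhibitor genes Ctla2a and Ctla2b fell by 3.83 and fell by 3.72. The feedback inhibitors of cytokine signalling Cish and Socs2 fell by 2.44 and fell by 2.53. Txnip, which restrains glucose uptake, fell by 2.19, and the stem cell regulators Mllt3 and Msi2 fell by 2.16 and fell by 2.13. All genes of these paragraphs were chosen after their values were seen, except the 15 largest rises and falls, and each kept its call with any 1 of the 8 arrays left out.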
